A study of Homo sapiens with 3 samples.

Results

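The genes described here are CDH1, which encodes E-cadherin, and 9 genes of the desmosome: the desmogleins DSG2 and DSG3, the desmocollins DSC2 and DSC3, plakoglobin (JUP), the plakophilins PKP1, PKP2 and PKP3, and desmoplakin (DSP). They were chosen by name from the deposited table, and each is represented by its transcript with the highest count summed over the 3 libraries. All 10 members were found among 19224 gene symbols, and all 10 passed the filter on low values, a mean of at least 1 RPKM (a read count divided by transcript length and by a total for the library), which kept 10153 genes. The RNA came from 5637 cells, an established human bladder cancer line labelled as wild type in every sample. The control was transfection with a control siRNA (siNC, 1 library), and the treatment was transfection with siRNA against CDCA3 (siCDCA3, 2 libraries named siCDCA3-1 and siCDCA3-2), a gene with a role in mitotic entry. The purpose of the series was to find genes downstream of CDCA3. The labels do not say whether the siCDCA3 libraries used different siRNA sequences or came from separate cultures, so p-values measure only the spread between these libraries.

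E-cadherin is the main adhesion protein of the adherens junction in epithelia. Its outer part binds E-cadherin on the next cell, and its inner part holds the actin network through catenins. Desmosomes are the neighbouring junctions that tie keratin filaments of adjoining cells together: desmogleins and desmocollins span the membrane, plakoglobin and plakophilins bind their inner ends, and desmoplakin links these to keratin. In stratified epithelia DSG3 and DSC3 are typical of basal and lower layers and PKP1 of the layers above the basal one, whereas DSG2, DSC2 and PKP2 occur more widely, including in simple epithelia.

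The targeted gene, CDCA3, measured 5.52 RPKM with the control siRNA and 0.574 and 1.40 RPKM with siCDCA3-1 and siCDCA3-2. This was 10.4% and 25.3% of the siNC level, with an edgeR log2 fold change of -2.50 ± 0.67 (SE) that did not pass after adjustment over all genes (edgeR adjusted p = 0.9997). The libraries held 40420562 to 62389920 gene-level counts, and every pair of libraries differed by more than counting error, by a chi-square of 168 to 372 per degree of freedom. It was 168 for siNC with siCDCA3-1, 313 for siNC with siCDCA3-2 and 372 for the siCDCA3 libraries with each other. Pearson correlations on the log2 scale were 0.963, 0.938 and 0.915 in the same order. The siCDCA3 libraries were thus less alike than either was to siNC. The listed epithelial markers (EPCAM, GATA3, TP63 and 5 keratins) were present in each library, with levels that differed between libraries. Of these 8 markers, 1 was above siNC in both siCDCA3 libraries, 3 were below it in both and 4 lay on opposite sides (23.6%, 27.8% and 48.5% of all genes). Markers of differentiated umbrella cells, leukocytes and endothelium had summed RPKM under 1, from 0.0337 to 0.859, and the leukocyte marker PTPRC had 1, 0 and 10 counts. The 7 fibroblast markers summed to 7.23, 10.05 and 2.39 RPKM in siNC, siCDCA3-1 and siCDCA3-2, most of it COL1A1 (6.96, 8.33 and 2.26). Among the rest, LUM had 0.123, 1.47 and 0.00294 RPKM, DCN had 4, 29 and 4 counts and PDGFRB had 98, 97 and 63 counts. COL1A2 (3, 5 and 19 counts), COL3A1 (3, 2 and 14) and PDGFRA (2, 6 and 16) were very low and went another way, with their highest counts in siCDCA3-2. The part of these markers in the results was not tested, and in bulk RNA fewer cells of a type and less RNA per cell cannot be told apart.

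The stretches of DNA before PKP1, DSG3 and DSG2 are shown first because these genes carry the contrasts described below: PKP1 and DSG3 were lower in both siCDCA3 libraries, and DSG2 lies next to DSG3 on the same chromosome but was not. Each is the 250 bases before the annotated start of the gene from RefSeq (GRCh38.p14), written 5′ to 3′ on the gene's own strand. Capitals mark the E-box CAGGTG or its reverse complement CACCTG, the sequence bound by SNAI and ZEB repressors. PKP1 lies on the plus strand at chr1:201283256-201283505, DSG3 on the plus strand at chr18:31447491-31447740 and DSG2 on the plus strand at chr18:31497927-31498176.
PKP1: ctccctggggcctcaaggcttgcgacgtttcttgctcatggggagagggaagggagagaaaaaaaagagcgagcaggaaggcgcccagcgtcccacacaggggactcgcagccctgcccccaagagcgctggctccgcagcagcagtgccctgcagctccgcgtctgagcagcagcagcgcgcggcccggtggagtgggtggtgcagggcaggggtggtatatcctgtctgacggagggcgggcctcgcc
DSG3: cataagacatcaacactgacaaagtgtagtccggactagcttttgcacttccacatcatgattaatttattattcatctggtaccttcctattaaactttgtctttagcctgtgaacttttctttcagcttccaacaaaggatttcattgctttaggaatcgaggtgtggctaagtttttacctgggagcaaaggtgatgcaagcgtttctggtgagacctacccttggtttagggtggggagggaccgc
DSG2: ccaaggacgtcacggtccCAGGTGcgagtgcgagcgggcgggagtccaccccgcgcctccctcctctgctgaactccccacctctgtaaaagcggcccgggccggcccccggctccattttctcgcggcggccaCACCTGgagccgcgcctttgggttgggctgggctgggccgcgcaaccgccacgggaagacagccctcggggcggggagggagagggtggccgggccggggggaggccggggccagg

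The window of DSG2 held 2 of these E-boxes, and those of PKP1 and DSG3 held none. The bases were 75.2% G or C before DSG2, 67.6% before PKP1 and 42.8% before DSG3, against a median of 58.0% over all windows. Sequences for 7 of the 10 members were matched, with 9 windows because JUP and DSC2 each have a pair of annotated starts. CDH1, PKP2 and PKP3 were not matched. An E-box was present in 4 of the 9 windows (DSP, DSG2, 1 of JUP and 1 of DSC2), compared with 17.5% of the 35116 windows of all genes. The AP-1 sequence TGACTCA, or TGAGTCA on the other strand, was in 0 of the 9 and in 4.2% of all windows. A match or its absence describes the letters only.

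Plakoglobin was the most abundant member per transcript length in every library, and the members spanned a wide range of levels. With the control siRNA, RPKM was 119 for JUP, 20.7 for PKP3, 17.2 for CDH1, 13.9 for DSG2, 9.73 for DSP and 8.555 for PKP1. The remaining 4 members lay close together, with 2.73 for DSC2, 2.54 for DSG3, 2.15 for PKP2 and 1.65 for DSC3. PKP3, CDH1 and DSG2 filled ranks 2 to 4 in each library but exchanged places, so their order was not stable between libraries. DSP was at rank 5 in each. PKP1 was at rank 6 in siNC, at rank 8 in siCDCA3-1 and at rank 6 in siCDCA3-2.

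**Figure D1:**
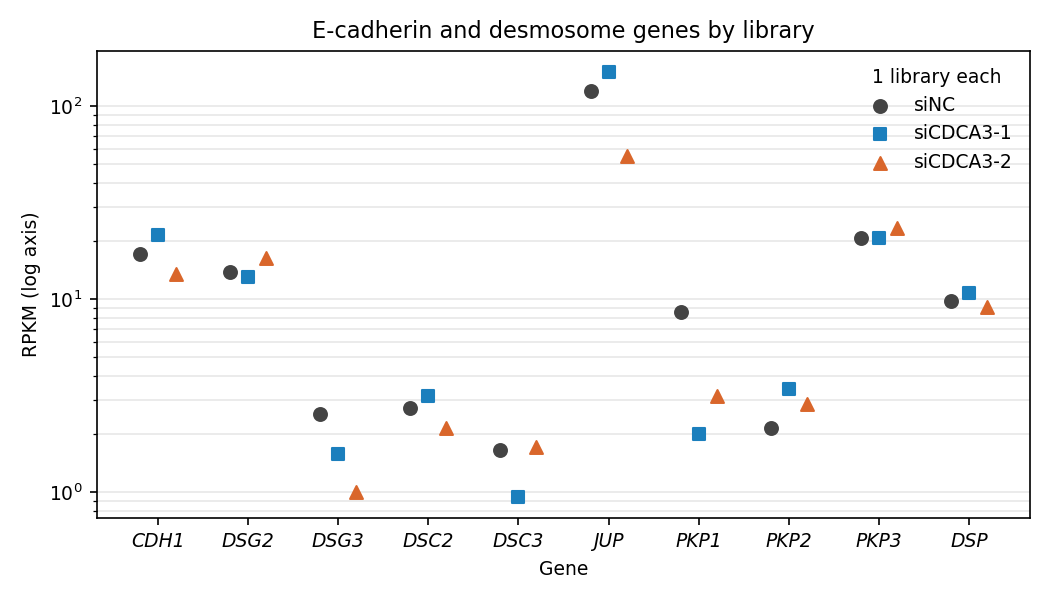
RPKM (log axis) of the 10 members in siNC (circles), siCDCA3-1 (squares) and siCDCA3-2 (triangles), 1 library each. PKP1 and DSG3 have both siCDCA3 values under the siNC value, and JUP is low in siCDCA3-2 only, at 55.4 against 119 and 149.9.

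None of the 10 members passed the edgeR test of siCDCA3 against siNC after adjustment over all genes, where 0.0295% of all genes passed (3 genes, all lower). At an unadjusted edgeR p under 0.05 there was 1 member, PKP1, against 1.32% of all genes, or 0.965% counting lower genes only. DESeq2 and limma called 0 members as well. The test has a single siNC library, which it assumes to vary like the siCDCA3 libraries, so a p over the threshold is no evidence of equal levels. The members' data are therefore given as values in each library, with 95% exact binomial intervals that cover counting error only.

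By size, PKP1 was the single member that both siCDCA3 libraries put at least 2-fold under siNC on the log2(RPKM + 1) scale, a size reached by 0.719% of all genes. In siCDCA3-1 by itself PKP1 was the single member at least 2-fold lower (1.74% of all genes), and in siCDCA3-2 PKP1 and JUP were (3.27% of all genes). With a pseudocount of 0.1 or 0.5 in place of 1, DSG3 joined them in siCDCA3-2, which made 3 members. No member was at least 2-fold higher in siCDCA3-1 (0.847% of all genes) or siCDCA3-2 (1.42% of all genes). The median log2 difference of the members was 0.07 in siCDCA3-1 and -0.17 in siCDCA3-2, beside -0.07 and 0.05 over all genes. The members' median was above that of all genes in siCDCA3-1 and below it in siCDCA3-2, and both comparisons share the siNC library.

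**Figure D2:**
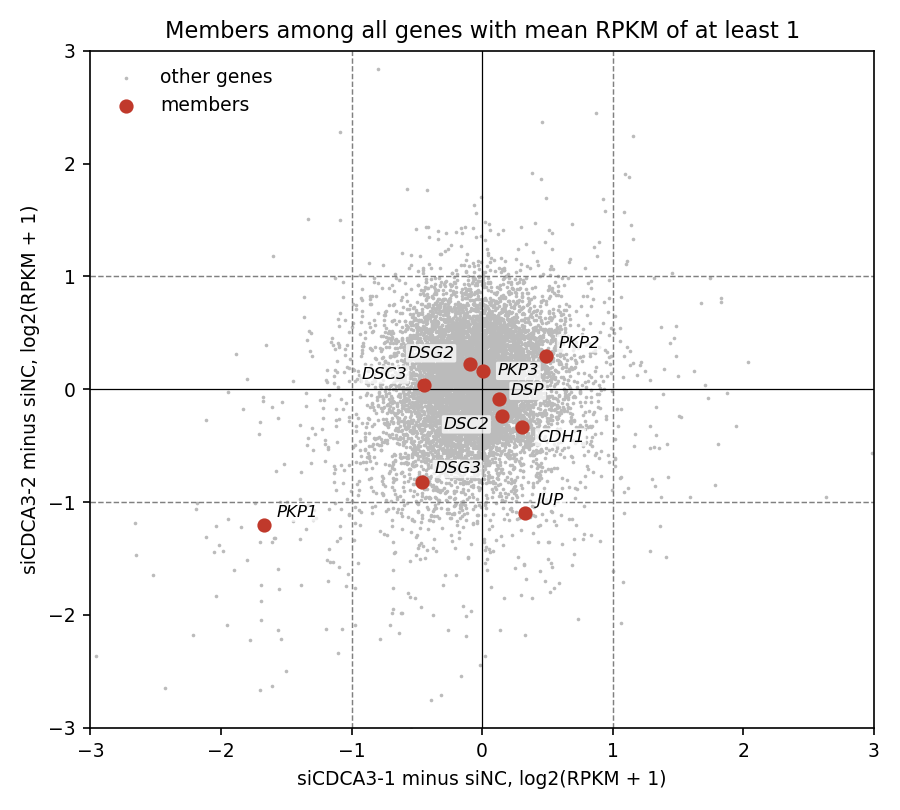
Difference from siNC in log2(RPKM + 1) for siCDCA3-1 (x axis) and siCDCA3-2 (y axis), for the 10 members (red) and the other genes past the filter (grey). Dashed lines mark 2-fold, 19 genes lie outside the axes, and PKP1 is the member in the lower left corner; both axes share the siNC library.

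The direction relative to siNC was mostly not shared by the siCDCA3 libraries. CDH1, DSP, JUP, DSC2, DSC3 and DSG2 lay on opposite sides of siNC (6 of 10 members, against 48.5% of all genes). PKP1 and DSG3 were below siNC in both (27.8% of all genes), and PKP2 and PKP3 were above it in both (23.6% of all genes). After TMM scaling DSC3 in siCDCA3-2 moved from just above to just below siNC (log2 difference 0.04 as deposited and -0.003 after scaling), while the other members kept their sides. With 10 members, these shares stand near those of all genes.

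**Figure D3:**
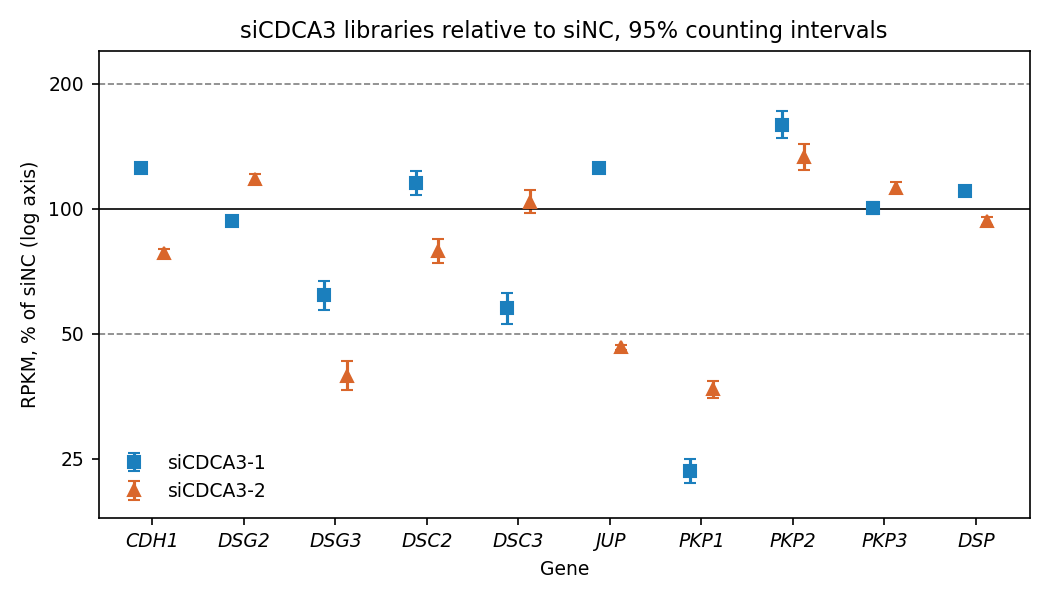
RPKM of each member as a percentage of siNC (log axis) in siCDCA3-1 (squares) and siCDCA3-2 (triangles), with 95% counting intervals as bars. The solid line is the siNC level and the dashed lines are 50% and 200%; PKP1 is at 23.4% and 36.7%, and DSG3 at 61.8% and 39.6%.

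PKP1 showed the largest difference from siNC of the members. It encodes plakophilin 1, an armadillo-repeat protein that clusters desmosomal cadherins and recruits desmoplakin. PKP1 (NM_000299.3, GRCh38 chromosome 1, 201283506 to 201332989) had 6079 counts with the control siRNA against 1133 and 2747 with siCDCA3-1 and siCDCA3-2, or 8.555, 2.00 and 3.14 RPKM. Both siCDCA3 libraries lay far below siNC, and the siCDCA3 values were nearer to each other than to siNC. The level was 23.4% of siNC in siCDCA3-1 (21.9% to 24.9%) and 36.7% in siCDCA3-2 (35.1% to 38.4%). edgeR estimated a log2 fold change of -1.74 ± 0.48 (SE), with an unadjusted p of 0.002894 and an adjusted p of 0.9997. In DESeq2 it was -1.73 (DESeq2 adjusted p = 0.4641), and without a filter on low values it was -1.80 (edgeR adjusted p = 0.1921). These were the lowest adjusted p-values among the alternatives. With the longest transcript it was -1.74 (edgeR adjusted p = 0.9999). In limma it was -1.44 (limma unadjusted p = 0.01083) and did not pass after adjustment. Counting PKP1 itself, 27 genes (0.266% of all) were as far below siNC as PKP1 in both libraries.

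PKP2 and PKP3 were at or above their siNC level in both siCDCA3 libraries, and PKP4, a related protein outside the members, was not, with RPKM of 8.52, 7.235 and 9.04 in siNC, siCDCA3-1 and siCDCA3-2. PKP3, the plakophilin with the widest set of desmosomal partners and the most abundant here (NM_007183.3, GRCh38 chromosome 11, 392596 to 404908), measured 20.7 RPKM in siNC beside 20.8 and 23.2 in the siCDCA3 libraries. Its siCDCA3-1 value was within counting error of siNC, at 100.5% (97.2% to 104%), and its siCDCA3-2 value was slightly above, at 112% (109% to 116%). PKP2, best known from the desmosomes of heart muscle and simple epithelia (NM_004572.3, GRCh38 chromosome 12, 32790755 to 32896777), had RPKM of 2.15, 3.42 and 2.85. It was the member farthest above siNC, at 159% (148% to 172%) in siCDCA3-1 and 133% (124% to 143%) in siCDCA3-2. Its log2 fold change in edgeR was 0.56 ± 0.55 (SE, edgeR adjusted p = 0.9997), so this difference was about as large as its error.

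The mix of plakophilins can be compared within a library, where total scaling cancels. PKP1 made up 27.3% of the summed RPKM of PKP1, PKP2 and PKP3 in siNC, 7.62% in siCDCA3-1 and 10.7% in siCDCA3-2. The summed RPKM itself was 31.4, 26.2 and 29.2. With PKP4 in the sum, the share of PKP1 was 21.4%, 5.97% and 8.20%. PKP3 exceeded PKP1 per transcript length by 2.42 times in siNC (2.34 to 2.50), 10.4 times in siCDCA3-1 (9.77 to 11.1) and 7.40 times in siCDCA3-2 (7.095 to 7.72). PKP2 was at 0.251 times the PKP1 level in siNC (0.236 to 0.267), and at 1.71 times (1.58 to 1.85) and 0.909 times (0.858 to 0.963) in the siCDCA3 libraries. Both ratios were above their siNC value in each siCDCA3 library, by more than counting error. They share PKP1 as the divisor, so their direction follows from the levels given above and adds no separate evidence.

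**Figure D4:**
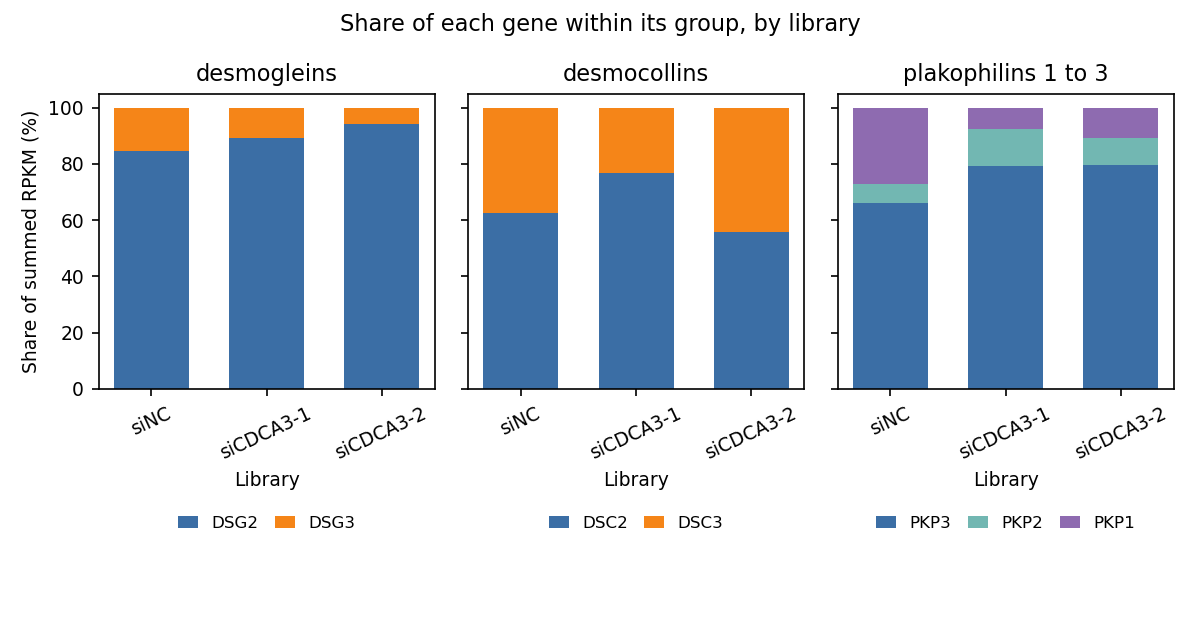
Share of the summed RPKM taken by each gene among the desmogleins (DSG2, DSG3), desmocollins (DSC2, DSC3) and plakophilins 1 to 3 (y axis, %) in siNC, siCDCA3-1 and siCDCA3-2. The top segments (DSG3 and DSC3 in orange, PKP1 in purple) are smaller than in siNC in both siCDCA3 libraries for PKP1 and DSG3, and in siCDCA3-1 only for DSC3.

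Of the desmogleins, which form the outer adhesive contacts of the desmosome, DSG3 was lower in both siCDCA3 libraries and DSG2 was not. DSG3, known as the antigen of pemphigus vulgaris (NM_001944.2, GRCh38 chromosome 18, 31447741 to 31478702), had 1840 counts (2.54 RPKM) in siNC, 908 (1.57 RPKM) in siCDCA3-1 and 897 (1.01 RPKM) in siCDCA3-2. The level was 61.8% of siNC (57.0% to 67.0%) and 39.6% (36.5% to 42.9%). edgeR estimated a log2 fold change of -0.95 ± 0.57 (SE, unadjusted p = 0.1161, adjusted p = 0.9997). On log2(RPKM + 1) the differences were -0.46 and -0.82, and 184 genes (1.81% of all) were as far below siNC in both libraries. DSG2, the desmoglein found in all desmosome-bearing tissues (NM_001943.4, GRCh38 chromosome 18, 31498177 to 31549008), had RPKM of 13.9, 12.9 and 16.3, at 93.4% of siNC (90.7% to 96.2%) and 118% (115% to 121%). Its siCDCA3 values lay on either side of siNC.

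DSG2 exceeded DSG3 per transcript length by 5.45 times in siNC (5.19 to 5.73), 8.24 times in siCDCA3-1 (7.69 to 8.83) and 16.2 times in siCDCA3-2 (15.2 to 17.4). DSG3 accordingly made up 15.5%, 10.8% and 5.80% of the summed desmoglein RPKM. The intervals of the 3 libraries did not overlap, but they cover counting error only, which every pair of libraries exceeded. Those of the DSC2 to DSC3 ratio did not overlap either, and the share of all genes with such intervals was not computed.

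Of the desmocollins, the partners of desmogleins in the membrane, neither was lower in both libraries. DSC3 (NM_024423.3, GRCh38 chromosome 18, 30989365 to 31042742) had 1653 counts (1.65 RPKM) in siNC, 760 (0.948 RPKM) in siCDCA3-1 and 2115 (1.71 RPKM) in siCDCA3-2. Only siCDCA3-1 was low, at 57.6% of siNC (52.8% to 62.8%), while siCDCA3-2 was within counting error of siNC at 103.9% (97.4% to 111%). DSC2, the more widely expressed desmocollin (NM_004949.4, GRCh38 chromosome 18, 31058840 to 31102421), had RPKM of 2.73, 3.14 and 2.16, at 115% (108% to 123%) and 79.0% (74.1% to 84.4%) of siNC. DSC2 exceeded DSC3 per transcript length by 1.66 times in siNC, 3.31 times in siCDCA3-1 and 1.26 times in siCDCA3-2. The siCDCA3 libraries thus lay on opposite sides of siNC in this ratio, unlike the desmoglein and plakophilin ratios.

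DSC2, DSC3, DSG2 and DSG3 lie in a single cluster of 7 desmosomal cadherin genes that spans 560 kb of GRCh38 chromosome 18, in the order DSC3, DSC2, DSC1, DSG1, DSG4, DSG3, DSG2. The genes at the ends of the cluster were detected and the 3 in the middle were nearly silent. DSG1, a desmoglein of the upper epidermis, had 0, 0 and 7 counts, DSG4, known from hair follicles, had 0, 0 and 9, and DSC1, of the upper epidermis, had 1, 0 and 10. A count of 0 allows up to 3 counts, which for DSG1 is an RPKM of 0.00317 in siNC and 0.00397 in siCDCA3-1. DSG3 and DSG2 are 19.5 kb apart, and DSC3 and DSC2 16.1 kb, yet the neighbours differed in direction or size within each siCDCA3 library.

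The plaque proteins JUP and DSP had different patterns. JUP encodes plakoglobin, which is shared by desmosomes and adherens junctions. JUP (NM_002230.2, GRCh38 chromosome 17, 41754609 to 41786711) had 54633 counts (119 RPKM) in siNC, 54754 (149.9 RPKM) in siCDCA3-1 and 31193 (55.4 RPKM) in siCDCA3-2. It was above siNC in siCDCA3-1, at 125.5% (124% to 127%), and well below it in siCDCA3-2, at 46.4% (45.7% to 47.0%). JUP was the single member for which the siCDCA3 libraries were at least 2-fold apart, as were 8.63% of all genes. Its log2 fold change in edgeR was -0.17 ± 0.64 (SE, edgeR adjusted p = 0.9997), and it was 0.41 from siCDCA3-1 alone and -1.17 from siCDCA3-2 alone.

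JUP decided the summed level of the members. Their RPKM summed to 198 in siNC, 227 in siCDCA3-1 and 128 in siCDCA3-2, with JUP at 60.2%, 66.0% and 43.1% of the sum. Without JUP the sums were 79.1, 77.0 and 72.9.

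DSP, the largest plaque protein and the link to keratin (NM_004415.3, GRCh38 chromosome 6, 7541671 to 7586714), was among the members closest to siNC. It measured 9.73 RPKM in siNC beside 10.7 and 9.08 in the siCDCA3 libraries, or 110% (107% to 113%) and 93.3% (91.1% to 95.6%) of siNC. Its log2 fold change in edgeR was 0.04 ± 0.51 (SE, edgeR adjusted p = 0.9997). The 3 DSP transcripts, which differ in the length of the rod, were at 109% to 110% of siNC in siCDCA3-1 and at 93.3% to 93.7% in siCDCA3-2, but most of their reads are shared.

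CDH1 (NM_001317185.1, GRCh38 chromosome 16, 68737292 to 68835537) had 10953 counts (17.2 RPKM) in siNC, 10943 (21.5 RPKM) in siCDCA3-1 and 10518 (13.4 RPKM) in siCDCA3-2. E-cadherin RNA was thus above siNC in siCDCA3-1, at 125% (122% to 128.5%), and below it in siCDCA3-2, at 78.0% (75.9% to 80.1%). The siCDCA3 values lay on either side of siNC by more than counting error, and the edgeR log2 fold change of 0.05 was small beside its SE of 0.54 (edgeR adjusted p = 0.9997). Its 4 transcripts were at 124% to 125% of siNC in siCDCA3-1 and at 77.9% to 78.3% in siCDCA3-2.

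Base composition moved with the siCDCA3-2 differences. Over genes with a value, the log2 difference from siNC had a Spearman correlation with transcript GC content of -0.385 in siCDCA3-2 and 0.119 in siCDCA3-1, a description across genes within libraries. JUP, with 61.5% GC, belonged to a GC decile (genes ranked by GC content and split into 10 bins) whose median difference in siCDCA3-2 was -0.17, and JUP itself was at -1.09. DSG3 (42.4% GC) and DSG2 (42.0%) shared a GC decile with a median of 0.19 in siCDCA3-2, where DSG3 was at -0.82 and DSG2 at 0.22. For PKP1 (56.4% GC) the medians of its GC decile were -0.01 in siCDCA3-1 and -0.12 in siCDCA3-2, beside its own -1.67 and -1.21. The part of base composition in the values of any member, these included, was not tested.

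In the other gene lists edgeR called 0 genes in either direction, and KRT17 alone had an unadjusted edgeR p under 0.05. DESeq2 and limma also called 0 genes of these lists. Of 8 further desmosome and cornified envelope genes 4 passed the filter on low values, and all 4 lay on opposite sides of siNC in the siCDCA3 libraries, as did 48.5% of all genes. PERP, a membrane protein that desmosome assembly needs, measured 56.8 RPKM in siNC beside 24.4 in siCDCA3-1 and 59.5 in siCDCA3-2. Periplakin (PPL), which binds keratin at the cell border, had 3.01, 6.21 and 1.41. PERP was thus low in siCDCA3-1 alone, while PPL was high there and low in siCDCA3-2.

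Among the adherens junction partners of E-cadherin, 9 of 10 passed the filter, 6 of them lay on opposite sides of siNC, 2 were above it in both libraries and 1 below it in both (48.5%, 23.6% and 27.8% of all genes). After TMM scaling 1 was above it in both and 7 lay on opposite sides. NECTIN1, a nectin that starts cell contacts, was at the lower end of the list with RPKM of 36.7, 22.3 and 17.96. CTNNB1, which encodes beta-catenin, was at the upper end with 33.7, 39.4 and 46.5. Of 6 other cadherins 4 passed the filter. CDH2, which encodes N-cadherin, was at their upper end with 17.7, 28.3 and 20.0, and CDH3, which encodes P-cadherin, at their lower end with 31.0, 29.95 and 19.3. CDH3 was barely under siNC in siCDCA3-1, and above it after TMM scaling.

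Of 7 factors known to repress CDH1, 3 passed the filter and lay on opposite sides of siNC (48.5% of all genes), though TWIST1 was above it in both libraries after TMM scaling. SNAI2 had RPKM of 10.3, 6.69 and 11.8, and TWIST1 had 3.35, 3.19 and 4.28. Of 11 epithelial transcription and splicing factors 10 passed the filter, with 3 below siNC in both libraries (27.8% of all genes; 2 of the 10 after TMM scaling) and 7 on opposite sides (48.5% of all genes). KLF4, a factor of epithelial differentiation, was at the lower end with RPKM of 5.04, 1.62 and 2.90 (edgeR unadjusted p = 0.05696, adjusted p = 0.9997). OVOL1 was at the upper end with 2.21, 2.13 and 6.06. TP63, the factor of basal epithelial cells, had 16.0, 6.30 and 12.4, and is outside the naming rule and picked with its values known.

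Of 13 tight junction genes 10 passed the filter, with 4 below siNC in both libraries, 3 above it in both and 3 on opposite sides, beside 27.8%, 23.6% and 48.5% of all genes. CLDN1 was at the lower end, with RPKM of 29.95, 12.3 and 24.9, and CLDN4 at the upper end, with 30.6, 38.6 and 49.1. Of 9 intermediate filament genes 8 passed the filter, with 4 below siNC in both libraries, 2 above it in both and 2 on opposite sides, again beside 27.8%, 23.6% and 48.5% of all genes. KRT17, a basal keratin, had RPKM of 429, 210 and 138 (edgeR unadjusted p = 0.03372, adjusted p = 0.9997), and KRT8, a simple epithelial keratin, had 246, 385 and 238.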

How the data were processed

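RNA of 3 libraries (1 siNC, 2 siCDCA3) was measured by paired-end sequencing after removal of ribosomal RNA, per the labels' protocols. The submitters' processing notes name Trimmomatic 0.36, FastQC, HISAT2 and HTSeq; whether strand was used in counting is not known here, so reads of DSP, DSC2, DSC3 and DSG2 cannot be told apart from those of overlapping long non-coding genes. Per the file headers, the deposited table gives a raw count and an RPKM for each RefSeq transcript. The RPKM equals the count scaled by transcript length and a library total. That total was 130459616 in siNC, 104153360 in siCDCA3-1 and 160640877 in siCDCA3-2. The gene-level counts were smaller, at 50912733, 40420562 and 62389920, so RPKM values here are lower than gene-level totals would give. Transcripts share reads (the 21 transcripts of the members had at least 83.3% of their gene's highest count), so they were not summed. Symbols turned into dates were restored from the accession, and 1 row was dropped. Of the accessions, 98.6% were found in RefSeq's annotation of GRCh38.p14, the source of coordinates.

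The main test was edgeR 4.0.16 (R 4.3.3): counts were scaled by TMM, siCDCA3 was set against siNC in a two-sided quasi-likelihood test, and p-values were adjusted (Benjamini-Hochberg, threshold 0.05) over the 10153 genes averaging 1 RPKM or more. The prior degrees of freedom were 12 with 1 residual degree of freedom. Each SE was derived by dividing the size of the log2 fold change by the root of its F statistic. Differences used log2(RPKM + 1), and 2-fold means a difference of 1 on that scale, which understates low genes such as DSG3. Alternatives were DESeq2 1.42.0, limma 3.58.1, other scaling, filters, pseudocounts, transcripts and a minimum fold of 1.5, and each siCDCA3 library left out. All 10 members are named; from the other lists, the genes at either end by mean difference are named, except for 1 list that is not reported here. The members and lists were chosen with earlier results of these data known.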

Additional observations from a re-analysis of the deposited data

How the results depend on the processing

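No member passed the adjusted threshold under any alternative test. Over all genes, DESeq2 called 2 higher and 8 lower genes and edgeR without a filter 4 higher and 18 lower, against 0 and 3 in the main test, while limma, and edgeR on genes averaging 5 RPKM or more, called 0 lower. At that filter 5 members remain, with 0 at least 2-fold lower in siCDCA3-1 and 1, JUP, in siCDCA3-2, because PKP1 is removed. The log2 fold change of CDH1 was -0.014 in limma and -0.002 without a filter, and that of DSP -0.014 without a filter, against 0.051 and 0.043; the cause was not tested. Leaving out each siCDCA3 library gave values with no test, from -3.18 to -2.04 for CDCA3, -2.02 to -1.51 for PKP1, -1.40 to -0.61 for DSG3 and -1.17 to 0.41 for JUP. The median difference of the members was 0.14 and -0.21 after TMM scaling. With 1 library a side no count of calls could be made. No paired analysis was possible because siNC has a single library. The spread between siNC cultures was not measured.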

Other observations

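Epithelial genes outside the members lay on opposite sides of siNC in both orders; those named here were chosen after their values were seen, and no test was made. Of the 10 epithelial transcription and splicing factors past the filter, 3 were high in siCDCA3-1 and low in siCDCA3-2, as JUP was, and 4 the reverse, beside 1805 and 3124 of all 10153 genes. The split varied between lists. These counts were 4 and 2 for the members, 2 and 2 for further desmosome and cornified envelope genes and 5 and 1 for adherens junction partners. They were 3 and 0 for tight junction genes, 2 and 0 for intermediate filament genes and 3 and 1 for epithelial markers. For other cadherins they were 1 and 0, and for factors known to repress CDH1 they were 1 and 2. KRT8 and KRT18 are counted among both the filament genes and the epithelial markers. ELF3, an epithelial transcription factor, measured 14.97 RPKM in siNC beside 54.0 in siCDCA3-1 and 7.89 in siCDCA3-2. TJP3, a tight junction scaffold, had 0.11, 1.76 and 0.014, from 45, 573 and 7 counts. GRHL1, a factor that acts on desmosomal cadherin genes, had 2.25, 3.41 and 0.888, and NECTIN2 had 32.7, 46.0 and 19.4. ZEB2, a repressor of CDH1, was also highest in siCDCA3-1, with 0.169, 1.10 and 0.102 from 204, 1063 and 151 counts. Neither TJP3 nor ZEB2 passed the filter on low values. CDH1 had its highest value in the same library as ZEB2, and a link between them was not tested. In the reverse order, EPCAM, an epithelial adhesion protein, had 27.0, 17.4 and 45.4, GRHL2 had 7.53, 5.94 and 9.39, and the splicing factors ESRP1 and ESRP2 had 19.1, 14.9 and 20.9 and 3.275, 2.37 and 4.445. OVOL1 and TWIST1 were in this order as deposited and above siNC in both libraries after TMM scaling. KLF5 was below siNC in both libraries as deposited. After TMM scaling it was just above siNC in siCDCA3-1 and below it in siCDCA3-2 (log2 differences of 0.026 and -0.452). The counts by order given above rest on the deposited scale and change with such moves.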
